A study of Caenorhabditis elegans with 2 samples.

Results

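The X chromosome of Caenorhabditis elegans held 286 of the 3824 reproducible peaks of EFL-1::GFP in first-stage (L1) larvae. These peaks were taken by position alone, as every X entry of the authors' reproducible list in the ce11 build, and no measured value entered the choice. The study consisted of chromatin immunoprecipitation and sequencing (ChIP-seq) on whole larvae of strain YL424, of mixed sex, in 1 group of 2 libraries labelled as biological replicates 1 and 2. Both libraries came from the same strain, whose genotype combines the unc-119(ed3) mutation on chromosome III with the inserted transgene vrIs68. The transgene expresses EFL-1 joined to GFP and FLAG from the efl-1 promoter with the efl-1 3' untranslated region, and it carries a working unc-119 gene. Age was given as unknown. One line of the labels names efl-1 as the antibody and another speaks of eGFP-efl-1, so the antibody is not settled. With a single group, no test between conditions was possible, and every comparison below sets X beside the other chromosomes of the same libraries by counts, medians and intervals.

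EFL-1 is a worm E2F transcription factor. With its partner DPL-1, the Rb-like protein LIN-35 and the MuvB proteins it forms the DREAM complex, which represses cell cycle and germline genes and reaches DNA through E2F sites and the CHR (cell cycle genes homology region). The worm X chromosome is poor in germline-expressed and ubiquitously expressed genes and rich in tRNA genes. In XX animals a condensin-based dosage compensation complex lowers expression from both X chromosomes, and it loads at recruitment elements on X that share a sequence motif.

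The windows below show the letters found at prominent X summits, each reaching 50 bp to either side of the summit. They are the pair with the highest scores and the 3 windows among the 50 strongest X peaks that held both a CHR and an E2F core and touched no annotated exon. All are given 5′ to 3′ on the plus strand of ce11, read from the RefSeq copy of the WBcel235 assembly. Capitals mark CHR cores (TTTGAA or TTCGAA) and E2F cores (TTCCCGC or TTCGCGC, and also TTGCCGC or TTGGCGC), on either strand.
strongest X peak, 1680 bp from the atg-2 start, chrX:6805033-6805133: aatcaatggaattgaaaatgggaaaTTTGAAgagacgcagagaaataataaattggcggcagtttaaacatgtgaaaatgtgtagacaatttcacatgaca
klp-13 promoter, chrX:5984727-5984827: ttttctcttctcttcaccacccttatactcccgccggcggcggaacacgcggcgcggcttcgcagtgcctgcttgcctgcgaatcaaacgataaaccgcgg
unc-84 intron, chrX:13584992-13585092: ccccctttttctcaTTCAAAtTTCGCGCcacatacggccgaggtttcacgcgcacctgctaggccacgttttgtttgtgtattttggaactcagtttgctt
ekl-5 upstream region, chrX:13918288-13918388: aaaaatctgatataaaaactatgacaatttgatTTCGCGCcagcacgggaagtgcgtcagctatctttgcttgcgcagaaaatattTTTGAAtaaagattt
M02D8.3 promoter, chrX:8737150-8737250: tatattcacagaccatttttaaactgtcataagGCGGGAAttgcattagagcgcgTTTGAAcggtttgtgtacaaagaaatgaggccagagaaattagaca
The window of the strongest X peak held a CHR core and no E2F core. The klp-13 window held neither, and 60.4% of its bases were G or C. In the unc-84 window the CHR and the E2F core lay 1 base apart, in M02D8.3 they were separated by 15 bases, and in ekl-5 by 46 bases.

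A second set of sequences is shown because the same letters recurred at X summits. It holds all 15 copies within 50 bp of an X summit outside promoters. Capitals mark CGCAGGG, the core of the motif known from the recruitment elements of dosage compensation, with 10 bases to each side and read in the direction of the core. Ranks are by score among the 286 X peaks.
X rank 16, chrX:8036391-8036417, minus strand: ttttttatcgCGCAGGGacgtatgtcg
X rank 16, chrX:8036426-8036452, plus strand: ttttccatcgCGCAGGGaacccttcga
X rank 19, chrX:6296539-6296565, plus strand: ttacatttggCGCAGGGggtcaccata
X rank 19, chrX:6296567-6296593, plus strand: ataggtatcgCGCAGGGaagatttacc
X rank 61, chrX:14525890-14525916, minus strand: ttgcctatcgCGCAGGGacagatgtgg
X rank 64, chrX:2997113-2997139, minus strand: aaatttatcgCGCAGGGaggaagtagc
X rank 79, chrX:806665-806691, plus strand: gcgattatcgCGCAGGGgtgtttgttg
X rank 93, chrX:11937532-11937558, plus strand: gaggtacaaaCGCAGGGaagagaatta
X rank 95, chrX:11094216-11094242, minus strand: gaaccattcgCGCAGGGacacctcact
X rank 100, chrX:4209256-4209282, minus strand: gccgctatcgCGCAGGGacacctcttt
X rank 119, chrX:16682162-16682188, minus strand: gaaaacatcgCGCAGGGaacatcaaat
X rank 130, chrX:1345047-1345073, plus strand: atgtcattcgCGCAGGGcagctgagcc
X rank 207, chrX:13514549-13514575, plus strand: acctttatcgCGCAGGGatattgaaat
X rank 212, chrX:489999-490025, plus strand: atacaataagCGCAGGGaggtggtgaa
X rank 258, chrX:17181355-17181381, minus strand: ttgaaataagCGCAGGGaaggcgatac
In 9 of these 15 sequences the core was preceded by ATCG. At ranks 95 and 130 it was preceded by TTCG, at ranks 212 and 258 by TAAG, at rank 93 by CAAA and in the first of the rank 19 cores by TTGG. The 2 cores at promoter summits, which are not printed, were not preceded by ATCG. These cores are counted below.

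X carried few EFL-1 peaks for its size. It held 16.1 peaks per Mb over its 17718942 bp, whereas the autosomes ranged from 27.1 per Mb on chromosome V to 61.1 per Mb on chromosome III. X makes up 17.7% of the nuclear genome and 13.7% of its protein-coding genes, and it held 7.48% of the peaks. Per 100 protein-coding genes it had 10.5 peaks, close to chromosome V with 11.4 and below the autosomes as a whole with 20.5. Of its 2731 protein-coding genes, 174 had a reproducible summit in a promoter, defined as 500 bp upstream to 100 bp downstream of any annotated transcript start. That is 6.37% of X genes (95% Wilson interval, 5.52 to 7.35%), compared with 16.1% of autosomal genes, 9.53% on chromosome V, and 14.8% of all genes. Such intervals cover counting error over genes or peaks treated as independent, and not the spread between animals.

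**Figure D1:**
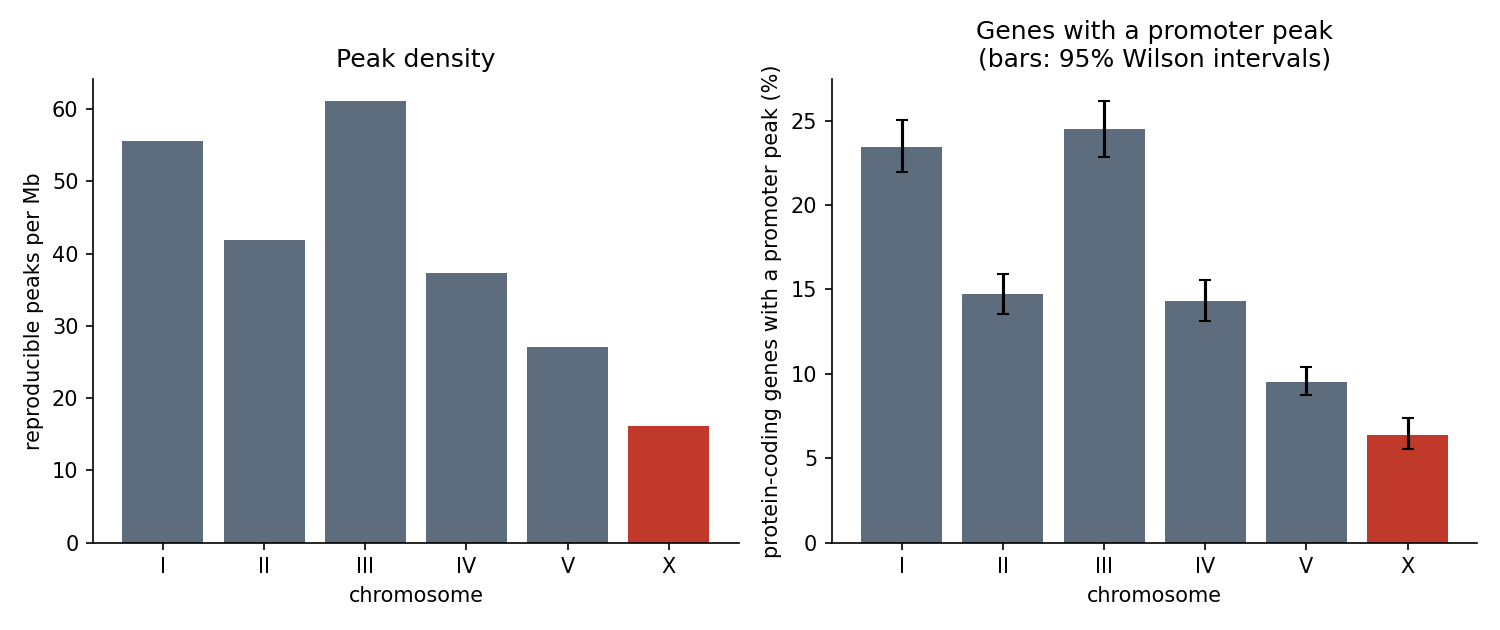
Peaks per Mb (left) and the percentage of protein-coding genes with a promoter peak (right) for each chromosome, with X in red and 95% Wilson intervals on the right. X has the lowest bar in both panels, at 16.1 peaks per Mb and 6.37% of genes.

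The peaks on X were also weak. The score is the authors' own value for each peak, deposited without a unit, and it was used to rank peaks within 1 list. The X median was 65.8, and the medians of the 5 autosomes ran from 97.9 on chromosome IV to 112.8 on chromosome II. The upper end differed more than the middle: the 90th percentile was 170.7 on X and 1020 over the autosomes. Only 3 X peaks (1.05%) were among the strongest 20% of the whole list, and 2 exceeded a score of 1000, as did 363 autosomal peaks. At the other end, 103 X peaks (36.0%) fell in the weakest 20% of the list. All X peaks together made up 2.2% of the summed score. Widths differed as well, since 84.3% of X peaks and 52.2% of autosomal peaks had the series' median width of 336 bp.

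**Figure D2:**
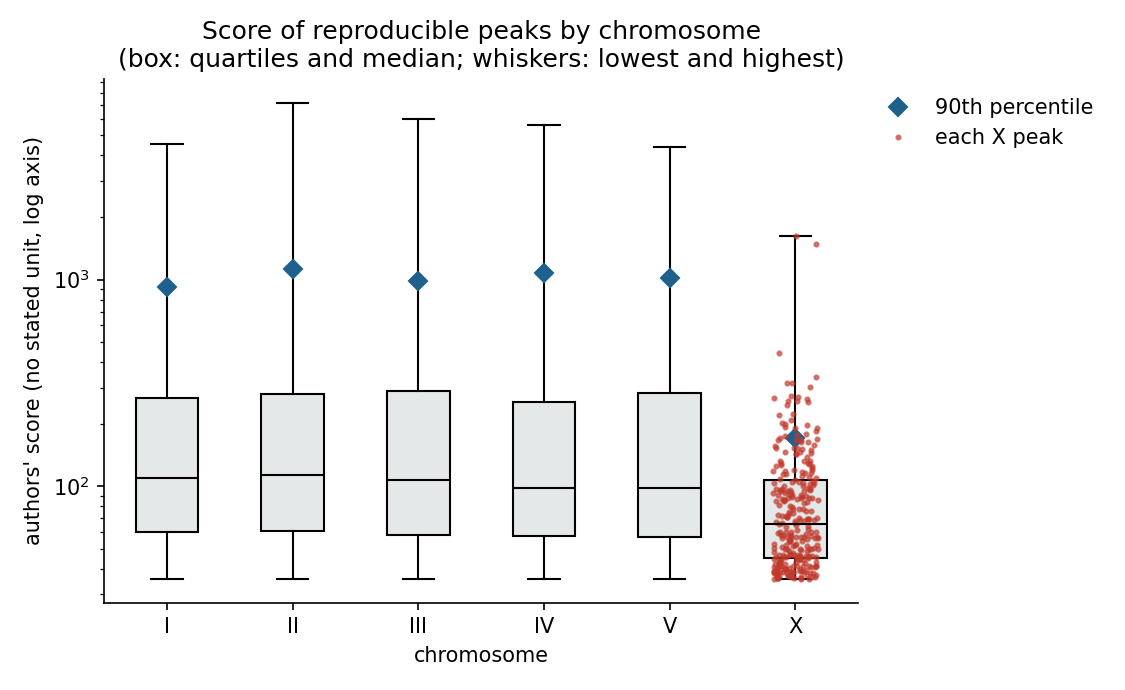
Authors' score of every reproducible peak by chromosome on a log axis, as boxes of quartiles and median, whiskers to the lowest and highest peak, diamonds at the 90th percentile, and a red point for each X peak. Most X points lie below 300, and 2 lie above 1000.

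A pair of peaks stood apart at the top. The strongest X peak (chrX:6804889-6805253, score 1620, position 212 in the whole list) lay outside genes, and the nearest annotated start, of the autophagy gene atg-2, was 1680 bp away. Its score was 386 in replicate 1 and 1236 in replicate 2, with ranks 64 and 244. The next (chrX:5984607-5984980, score 1479) had its summit 212 bp upstream of klp-13, which encodes a kinesin motor protein. Its scores were 273 in replicate 1 and 1192 in replicate 2, with ranks 157 and 260. Both libraries thus ranked this pair ahead of all the other X peaks. Each list was called on its own, so ranks and not scores are set side by side across lists.

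From the peak at position 3 on, X scores dropped by a factor of 3.37. The summit 50 bp upstream of hsp-3, the gene of an endoplasmic reticulum BiP chaperone, had a score of 439. It ranked 582 in replicate 2 and 1397 in replicate 1, where its −log10 q of 1.63 was below the minimum of 2 used here for support. The summit upstream of puf-9, a Pumilio-family RNA-binding protein gene, had a score of 336 and ranks of 582 in replicate 1 and 835 in replicate 2. The libraries thus ordered hsp-3 and puf-9 in opposite ways. The summit in an intron of unc-84, which encodes a SUN-domain protein of the nuclear envelope, lay 267 bp downstream of an annotated start and scored 316. The gene of translation elongation factor eEF1A, eef-1A.2, had a summit 360 bp upstream with the same rounded score of 316.

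Ranks 7 to 15 on X spanned scores from 302 down to 246. Of these 9 summits 7 lay in promoters, of F16B12.6, of the pair R07E4.3 and R07E4.5, of T26C11.4, pkhm-2, K10B3.5, of lsy-2, a zinc finger factor gene, and of the bZIP factor gene atf-4 together with WBGene00303075. The other 2 lay outside genes, 812 bp upstream of ivns-1 and 973 bp upstream of C04A11.2. Of the 15 strongest X peaks 12 were supported in each replicate list at a −log10 q above 2; hsp-3, pkhm-2 and atf-4 were not, with replicate 1 values of 1.63, 1.23 and 1.60. At the weak end, the last X peak inside the list was 163 bp upstream of sek-3 with a score of 35.8, and the strongest X entry of the pooled list left out of it was 27 bp upstream of his-24 with 35.7.

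Support from replicate 1 was thin for X. Overlap by 1 bp with any entry was found in replicate 1 for 181 X peaks (63.3%) and in replicate 2 for 278 (97.2%), and 3 X peaks had no entry in either. With a −log10 q above 2 required, the replicate 1 number was 33 (11.5%), against 33.0% of autosomal peaks and 31.4% of all peaks. Support in each list at that level was found for 32 X peaks (11.2%, Wilson interval 8.04 to 15.4%), and again for 31.4% of all peaks. These 32 had a median score of 194, the other X peaks 58.3, and 27 of them were among the 50 strongest. The strongest X peak with no replicate 1 entry was 21 bp upstream of hst-2, a heparan sulfate sulfotransferase gene, with a score of 174 and rank 1126 in replicate 2.

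The libraries also differed in how much of their lists lay on X. In replicate 1, X held 5664 of 30000 entries (18.9%) but only 35 of the 1196 entries above a −log10 q of 2 (2.93%). In replicate 2 it held 2810 of 28686 entries (9.80%) and 1307 of 12800 above that level (10.2%). Of the 4274 X entries in the list called on both alignments pooled, 6.69% were in the reproducible list, against 14.6% of autosomal entries. The rank correlation of replicate scores was 0.499 over the 176 X peaks found in both lists and 0.848 over 2735 autosomal peaks. Without the strongest 20% of the list it was 0.477 over 173 X peaks and 0.612 over 1975 autosomal peaks. These correlations are across peaks of the same pair of libraries and are given as descriptions. In both cases the value for X was the lower.

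**Figure D3:**
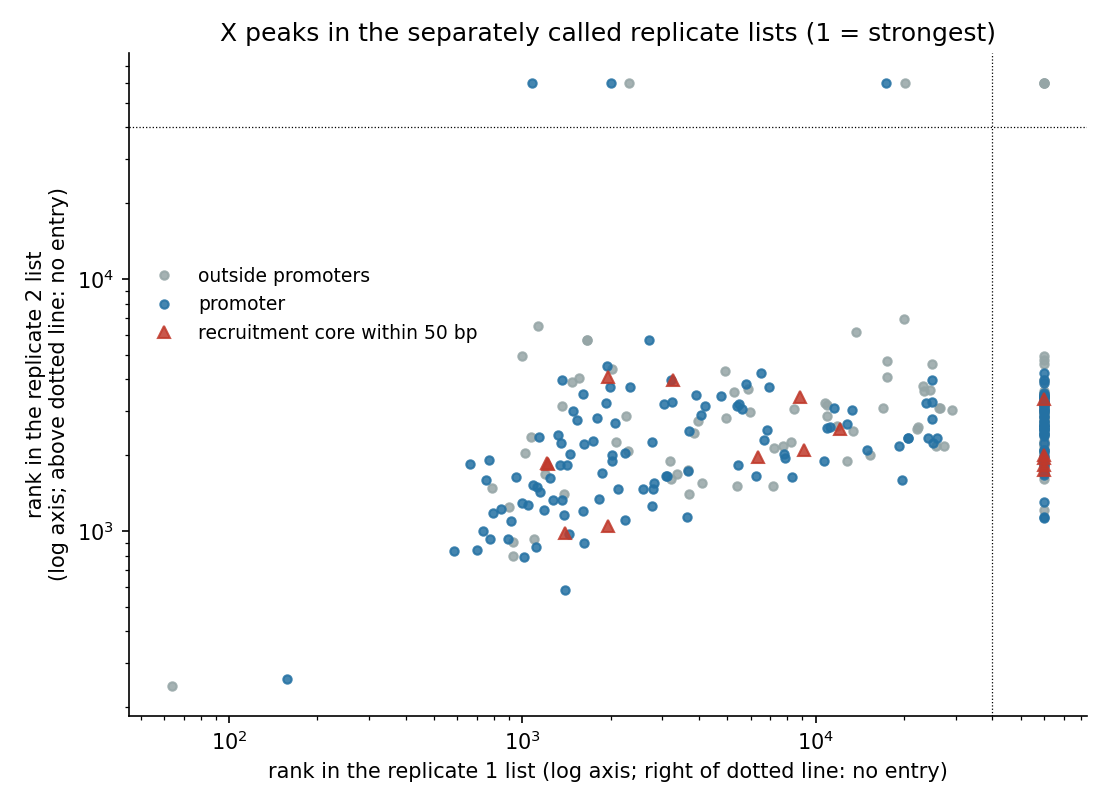
Rank of each of the 286 X peaks in the replicate 1 list (horizontal, log axis) and the replicate 2 list (vertical, log axis), by place; points beyond a dotted line have no entry in that list. The 2 strongest peaks sit alone at the lower left, and 105 peaks have no replicate 1 entry.

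Promoters were the commonest place of X summits. They held 157 of 286 (54.9%, Wilson interval 49.1 to 60.6%), compared with 61.2% on the autosomes and 60.7% of all peaks. A further 92 X summits (32.2%) lay outside protein-coding genes and their promoters, compared with 23.0% on the autosomes. Introns outside promoters held 36 X summits (12.6%), against 13.9% of all peaks, an untranslated exon held 1, and coding exons held 0. Promoter peaks on X had a median score of 74.2, peaks outside genes 60.3 and intron peaks 49.6. The 129 X summits outside promoters had a median distance of 1504 bp to the nearest protein-coding start, and 51 of them were more than 2000 bp away. The share differed between the replicate lists taken alone. Among the strongest 3824 entries of replicate 1 alone, 21.4% of 588 X summits lay in promoters, and in replicate 2 alone 56.1% of 296. Autosomal shares in these lists were 52.9% and 61.1%. These sets were not alike in stringency. A −log10 q above 2 was held by 35 of the 588 X entries in replicate 1 and all 296 in replicate 2. On the autosomes it was held by 1161 of 3236 and all 3528. Whether library or stringency underlies the difference was not tested.

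The promoter share was lower in each weaker group of peaks, apart from the step after the strongest group on X. When the whole list was divided by score into 5 groups of 20%, the strongest group had 66.7% of its 3 X peaks and 89.5% of its autosomal peaks in promoters. In the next group the shares were 77.8% of 45 X peaks and 72.4% of autosomal peaks, and in the middle group 55.1% of 69 and 56.9%. The next-to-weakest group had 51.5% of 66 X peaks and 45.8% of autosomal peaks in promoters, and the weakest 46.6% of 103 and 37.2%. X thus had the lower share in the strongest and the middle group and the higher share in the other 3. Support in each replicate list was found in the strongest group for 66.7% of the 3 X peaks and 99.2% of autosomal peaks. In the next-to-strongest group it was found for 55.6% of X peaks and 49.3% of autosomal peaks, and in the middle group for 4.35% and 6.75%. The shares were 0% and 1.14% in the next-to-weakest group, and 1.94% and 0.453% in the weakest. Below the strongest 20%, 54.8% of 283 X peaks and 53.4% of 2777 autosomal peaks lay in promoters, and 10.6% and 14.9% were supported.

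**Figure D4:**
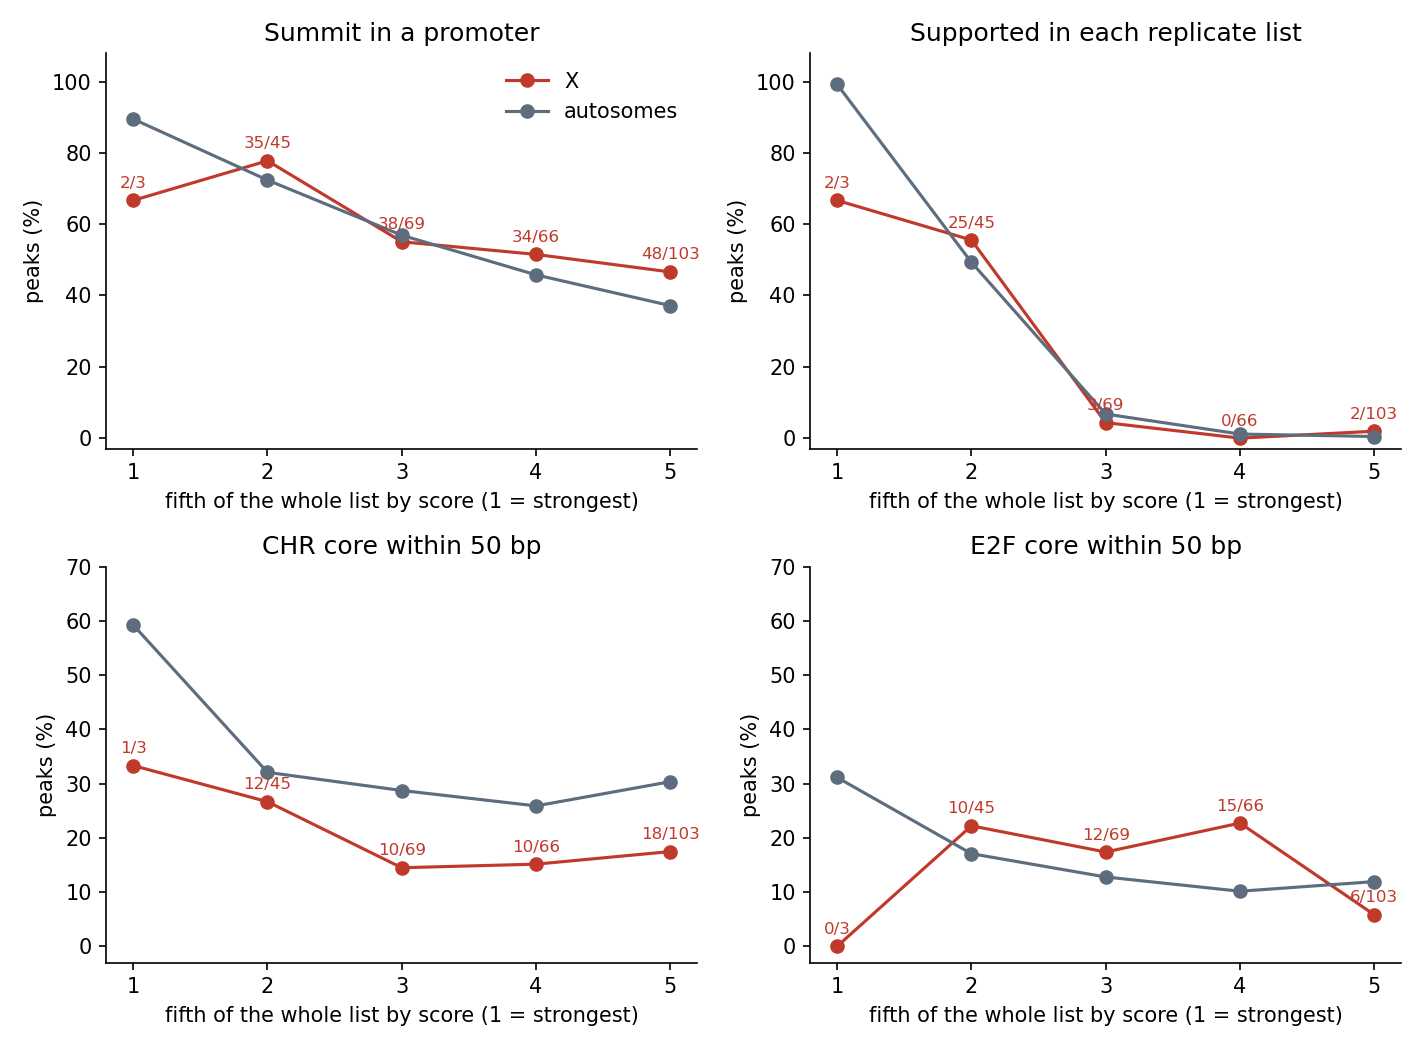
Percentage of X (red, with counts) and autosomal (grey) peaks with a promoter summit, with support in each replicate list, with a CHR core and with an E2F core, in 5 groups of the whole list from strongest (1) to weakest (5). Promoter share is higher on X in groups 2, 4 and 5 and lower in groups 1 and 3, and the CHR share is lower on X in every group.

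Within promoters, X summits lay slightly farther upstream. The median position was −184 bp from the nearest start on X and −154 bp on the autosomes. Of the 157 promoter summits, 55 lay 101 to 200 bp upstream, and 7 lay at or downstream of the start. Summits shared by the promoters of several genes were few on X, with 18 (6.29% of X peaks) against 18.4% of autosomal peaks and 17.5% of all peaks. X also has few genes in head-to-head order: 5.90% of its protein-coding genes and 19.6% of autosomal ones have a start on the opposite strand within 1000 bp upstream. The part of gene order in the number of shared summits was not tested.

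Peaks were spread along the whole of X. In bins of 1 Mb the number ranged from 9 to 31, apart from the incomplete last bin with 6. The bin from 6000001 to 7000000 had 31 peaks, of which 11 were in promoters, and those from 8000001 to 9000000 and from 14000001 to 15000000 had 27 each. The median gap between neighbouring summits was 39.0 kb, compared with 9.75 to 18.8 kb on the autosomes, and the longest was 427 kb. There were 8 gaps shorter than 1 kb.

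Among the genes of sex determination and dosage compensation, 3 of the 6 on X had a promoter peak, compared with 8 of 17 on the autosomes. The summit at ceh-39, which encodes an X-linked repressor of xol-1 used in counting X chromosomes, was 161 bp upstream with a score of 220. It ranked 911 in replicate 1 and 1099 in replicate 2, with a −log10 q above 2 in each. The peak 260 bp upstream of sdc-1, a zinc finger gene needed for dosage compensation, had a score of 85.5, rank 2182 in replicate 2 and rank 19246 in replicate 1. That of xol-1, the switch gene of male development, was 129 bp upstream with a score of 72.9 and ranks of 1531 and 2756. Of the 3, ceh-39 alone was supported in each list. No promoter peak was found at fox-1, sdc-2 or sex-1.

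Genes of replication and the cell cycle, prominent among E2F and DREAM targets, are few on X. The replication and repair list had 1 member there, csb-1, a transcription-coupled repair gene, with a summit 434 bp upstream and a score of 95.8. That summit lay nearer to F53H4.4, 35 bp upstream of its start, and had a replicate 1 −log10 q of 0.254. On the autosomes 69 of 105 members of the list were bound. Of the mitosis and cell cycle list, gfi-3 was bound with a score of 125 and a replicate 1 −log10 q of 0.678. The G1 kinase gene cdk-4 was not bound, and on the autosomes 77 of 119 members were. Of the 8 X genes on the chromatin list 1 was bound, against 30 of 52 on the autosomes. It was the histone demethylase gene lsd-1, with a score of 37.9 and no replicate 1 entry. None of the 3 synMuv and DREAM genes on X (hpl-1, lin-15A and lin-15B) and 0 of 5 small RNA genes had a promoter peak, against 10 of 22 and 18 of 48 on the autosomes. A peak outside genes with a score of 125 (rank 56 on X) lay 953 bp upstream of lin-15B, beyond the promoter bound used here. With 1 to 8 members of each list on X, these shares are coarse, and they depend on which genes were listed.

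Several widely expressed gene families had a larger share of bound members than X genes as a whole. The oxidative phosphorylation list was drawn by gene symbol and need not hold every X gene of the pathway. All 5 of its X members were bound, compared with 24 of 38 on the autosomes. They were asb-2 and asg-2, for ATP synthase subunits, with scores of 199 and 156, sdha-1, for the flavoprotein of complex II, with 178, and the complex III core genes ucr-2.2 and ucr-2.1 with 150 and 86.4. The summit at asg-2 also lay in the promoter of the glutamate receptor gene glr-6, the 1 bound gene among 42 innexin and channel genes on X. Translation factors had 2 of 3 bound, namely eef-1A.2 and the cap-binding protein gene ife-2 with 100, against 28 of 37 on the autosomes. Of the 2 ribosomal protein genes rpl-11.2 had a peak with 209, against 68 of 76. The list of vesicle trafficking and proton pump genes had 7 of 20 bound, led by the exocyst gene sec-3 with 152, the V-ATPase gene vha-12 with 133 and the exocyst gene sec-15 with 96.5, against 48 of 111 on the autosomes. Of 6 splicing factor genes 1 was bound, snrp-40.1 with 59.8, against 29 of 46. The replicate 1 −log10 q was above 2 at eef-1A.2, rpl-11.2 and sec-3. It was 0.424 at ife-2, 0.732 at vha-12, 0.972 at sec-15 and 0.221 at snrp-40.1. X has no member of the lists of mitochondrial ribosomal proteins, aminoacyl-tRNA synthetases or proteasome subunits, which had 39 of 70, 14 of 32 and 27 of 33 bound on the autosomes.

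Several families with tissue-restricted roles had no promoter peak on X, where 6.37% of all genes had one. The count was 0 of 28 for neuron genes and 0 of 28 for developmental regulators, compared with 7 of 54 and 9 of 56 on the autosomes. It was 0 of 34 for neuropeptides, 0 of 33 for chemoreceptors and 0 of 30 for cuticle collagens, families with few peaks on the autosomes too, at 2 of 106, 8 of 1276 and 4 of 143. Beyond tissue-restricted families, genes with ztf, hlh or zip symbols had 0 of 9 and listed histones 0 of 4, against 9 of 53 and 6 of 68 elsewhere. These lists were drawn by symbol and missed bound X genes. Among those were the zinc finger gene lsy-2, the bZIP gene atf-4 and the linker histone gene hil-3, with a score of 46.1. Other lists had single bound members, near the share of all X genes. Muscle genes had 1 of 18, mup-2, the troponin T gene, with 35.9, against 5 of 41. The intestine list had 1 of 15, the BiP chaperone gene hsp-3 described above, against 2 of 33. One of 23 nuclear hormone receptor genes, nhr-35, had a peak of 42.0, against 17 of 246. Of 18 homeobox genes 3 were bound (16.7%), ceh-39, ceh-93 with 45.4 and ceh-89 with 43.5, against 3 of 45 on the autosomes. In replicate 1 the −log10 q was 1.01 at ceh-93 and 0.353 at ceh-89, and mup-2, nhr-35 and hil-3 had no entry.

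Among non-coding genes, tRNA genes stood out by number. X carries 276 of the 612 annotated nuclear tRNA genes (45.1%), and 25 of them (9.06%) had a reproducible summit within 250 bp, compared with 21.8 to 46.9% on single autosomes. Seen from the peaks, 20 X summits (6.99%) lay that close to a tRNA gene, against 3.19% of all peaks. These 20 were weak, with a median score of 46.4 beside 69.4 for the other X peaks, and 0 were supported in each list. The same held on the autosomes. There the 102 peaks near a tRNA gene had a median score of 62.5 beside 109 for the others. Support in each list was found for 2.94% of them and 33.9% of the others. The strongest, with 96.5, lay in the shared promoter of C28G1.2 and sec-15, 149 bp from the tRNA gene WBGene00022947. The next had scores of 72.0 and 61.2 with the summit inside WBGene00000308 and WBGene00014333. The B box core GGTTCGA of tRNA genes, which shares the letters TTCGA with the second CHR form, was within 50 bp of 7 X summits (2.45%), against 1.83% of all peaks. Of 74 X miRNA genes 3 had a summit in the same promoter interval, mir-54 and mir-55 with 55.9 and mir-239a with 38.6, against 25 of 187 on the autosomes.

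The share of X summits with an E2F core lay near that of all peaks, and the share with a CHR core lay below it. An E2F core lay within 50 bp of 43 X summits (15%), compared with 16.9% of autosomal summits and 16.8% of all. In X windows of the same length centred 150 bp upstream of gene starts it occurred in 3.44%, and in adjoining tiles of that length over the whole of X in 2.69%. A CHR core lay at 51 X summits (17.8%), compared with 35.7% of autosomal summits and 34.4% of all. That was also below the X promoter windows with 28.7% and the X tiles with 32.8%. The CHR letters are rich in A and T, and the median share of G and C was 48.5% in X summit windows and 45.5% in autosomal ones; its part in the lower share was not tested. In the replicate 1 list alone, held to its strongest 3824 entries, a CHR core lay at 36.2% of X and 43.5% of autosomal summits. An E2F core lay there at 3.74% of X and 13.8% of autosomal summits. In replicate 2 alone, X and autosomal shares were 15.2% and 34.2% for CHR, and 14.5% and 16.4% for E2F. In these sets the E2F share on X lay near the autosomal one in replicate 2 and below it in replicate 1. The sets differ in stringency. A −log10 q above 2 was held by 35 of the 588 X entries in replicate 1 and all 296 in replicate 2. On the autosomes it was held by 1161 of 3236 and all 3528. The CHR and E2F shares are therefore not a like comparison of the libraries. Both cores were present at 11 X summits (3.85%), against 9.26% of all. The 4 of these among the 50 strongest X peaks, at unc-84, lsy-2, ekl-5 and M02D8.3, were supported in each replicate list, and the other 7 were not. The 8 E2F-core peaks on X that were supported in each list had a median score of 227.

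**Figure D5:**
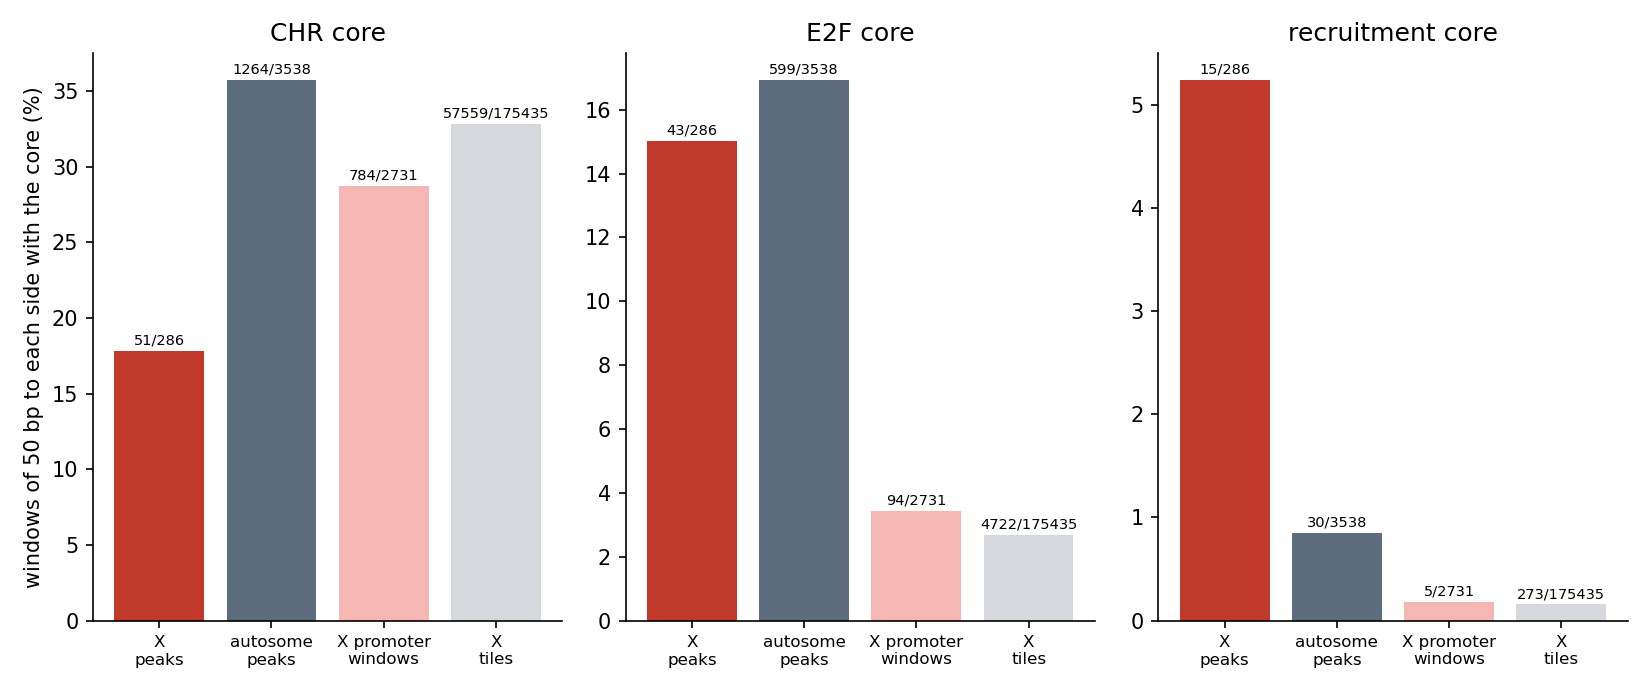
Percentage of windows, 50 bp to each side of the centre, with a CHR core (left), an E2F core (middle) and the recruitment core CGCAGGG (right) at X summits, at autosomal summits, upstream of X gene starts and in tiles over X, with the counts above the bars; the vertical scales differ. X summits have a lower percentage with a CHR core than any other set shown, and a higher percentage with the recruitment core.

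The recruitment core of dosage compensation was found at 15 X summits. That is 5.24% of X peaks, compared with 0.848% of autosomal peaks, 1.18% of all peaks, 0.183% of X promoter windows and 0.156% of X tiles. Of the 15, 10 lay outside genes, 3 in introns and 2 in promoters, of R04E5.9 and gcc-1. The strongest (rank 16, score 225) was 4893 bp upstream of xol-1 and had 2 cores in its window, of which both are printed above. The second (rank 19, score 202) was in an intron of mom-1, a Wnt pathway gene, and also had 2. The 15 had a median score of 90.7 beside 63.4 for the other X peaks, and were spread with a median spacing of 1.03 Mb. Of the 15, 4 also had an E2F core. The letters TTCGCGC and CGCAGGG can share bases, and 40 X summits kept an E2F core (14%) when matches that share bases with the recruitment core were not counted.

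The letters before the core were shared by many of these sites. Among the 17 cores in these windows, the base just before the core was G in 16 and the one before it C in 13. Farther out, T preceded in 12 and A in 10. Over all 301 occurrences of CGCAGGG on X, the same G had a share of 26.9% and the same C of 29.6%. The longer words CGCGCAGGG and ATCGCGCAGGG were therefore counted, chosen after these letters were seen. CGCGCAGGG occurred 33 times on X and 44 times on the autosomes. A reproducible summit lay within 50 bp of 13 of the X copies (39.4%) and of 0 of the autosomal copies. ATCGCGCAGGG occurred 13 times on X, 9 of them (69.2%) at a reproducible summit, and 2 times on the autosomes, neither at one. The shorter CGCAGGG occurred at 17 per Mb on X and 16.1 per Mb on the autosomes.

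The support for these sites came mainly from replicate 2, as it did for X peaks as a whole. All 15 had a replicate 2 entry with a −log10 q above 2, with a median rank of 1968. In replicate 1, 10 had an entry, at a median rank of 2610.5, and 0 had one above 2. The peak at X rank 61 came closest with 1.92. Among all X peaks, 63.3% had a replicate 1 entry and 11.5% one above 2, while 97.2% had a replicate 2 entry above 2. Median ranks over all X peaks were 3084 in replicate 1 and 2518 in replicate 2. Among the strongest 3824 entries of the replicate 1 list, 588 lay on X, of which 2 (0.340%) held the core. The same number of replicate 2 entries had 14 of 296 on X (4.73%). Autosomal shares were 0.464% of 3236 entries in replicate 1 and 0.907% of 3528 in replicate 2. In these sets the share on X was above the autosomal one in replicate 2 only. The sets are unlike in stringency. In replicate 1, 35 of the 588 X entries and 1161 of the 3236 autosomal ones had a −log10 q above 2. In replicate 2 all entries of the set did. Of the 3988 X entries of the pooled list that did not enter the reproducible list, 13 (0.326%) had the core. The control library was not analysed here, so the level at these places without the antibody is not given.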

How the data were processed

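ChIP-seq peak lists from 2 libraries of 1 group were used. Notes the authors deposited beside the lists say that calling was done per replicate and on pooled alignments against a shared control, and that the irreproducible discovery rate (IDR) then gave the reproducible list. Peak caller, aligner and IDR threshold are not given in the sources used here; the control library and signal tracks were not analysed here. The score is the authors' deposited value without a stated scale. The −log10 of the q-value was deposited by the authors and has a shared maximum in each list (3.22 in replicate 1, 4.22 in replicate 2). Summit offsets are the authors' deposited values in bp. Lists carry no read counts, so depth was unknown. The labels give a size range of 150 to 350 bp.

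Positions are ce11, matched to WBcel235 (Ensembl release 115 genes, RefSeq sequence), and the older build was used for a row count only. A promoter covered 500 bp before and 100 bp after any transcript start, and 1 summit could serve several genes. Support meant an overlap of 1 bp with a replicate entry of −log10 q above 2. Core letters were searched in both orientations up to 50 bp from each summit. Genes were named as the 15 strongest X peaks, bound X members of the symbol lists, and the strongest 3 of pattern lists and tRNA genes. Also named were the 3 strongest peaks outside promoters, the strongest without replicate 1, and peaks with both cores among the 50 strongest. Recruitment-core sites, R04E5.9, gcc-1, mom-1, sek-3, his-24, ucr-2.2, ucr-2.1, nmat-1, F53H4.4, hil-3 and unbound list members were named after their values were seen. Members and lists were chosen with earlier results of these data known. Alternatives covered promoter bounds, support level, overlap, windows, distances, the stronger 50% of peaks and each replicate list alone. Functions were checked on simulated peaks with Python 3.11.15, NumPy 2.4.6, pandas 2.3.3 and SciPy 1.17.1; plots used matplotlib 3.10.9.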

Additional observations from a re-analysis of the deposited data

How the results depend on the processing

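Of 36 alternatives, 18 left their result within 1.5 times the count or within the interval given, and 18 moved it. The strongest 3824 entries of replicate 2 and of replicate 1, each used alone, gave 296 and 588 X peaks, 56.1% and 21.4% in promoters, 188 and 129 bound X genes, a median score of 61.0 and 14.8 (separate scales), a CHR core in 15.2% and 36.2%, an E2F core in 14.5% and 3.74%, 19 and 7 peaks near a tRNA gene and 14 and 2 with the recruitment core; the replicate list and core alternatives were in part added after the data were seen. Of those X entries, all 296 in replicate 2 and 35 of the 588 in replicate 1 had a −log10 q above 2. The stronger 50% of the list held 80 X peaks, of which 67.5% lay in promoters at 60 genes and 5 had the recruitment core. Fewer peaks enter there by construction. Promoter share was 67.1% with 1000 bp upstream to 200 bp downstream and 39.2% with 250 to 50 bp. Support in each list was 61.5% at any q, 23.4% above 1 and 0% above 5, a level above the maximum of both lists. Windows of 100 bp to each side raised the CHR share to 36.4% and the E2F share to 19.9%, by their length. The older build listed 279 X peaks. No paired analysis was possible because the series has 1 group. Peak lists without counts or control signal limit all of this to presence, rank and position.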
